A study of Mus musculus with 20 samples.

Results

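The genes described here are 27 members of the cholesterol synthesis pathway and of its sterol regulation, chosen by symbol from knowledge of the pathway. The choice was made with earlier results of these data known. They were followed through 20 RNA-seq libraries of cultured mouse cardiac fibroblasts. They were 27 of the 55414 gene identifiers in the count table, of which 31062 had at least 1 read, and all 27 were among the 15624 genes kept for testing. The set held 18 enzymes of synthesis, 5 regulators of the sterol-sensing transcription factors, 1 sterol transfer protein and 3 targets of the liver X receptor (LXR). The enzymes were Acat2, Hmgcs1, Mvk, Pmvk, Mvd, Idi1 and Fdps of the mevalonate arm, followed by Fdft1, Sqle, Lss, Cyp51, Tm7sf2, Msmo1, Nsdhl, Hsd17b7, Ebp, Sc5d and Dhcr7 of the sterol arm. The regulators were Srebf1, Srebf2, Scap, Insig1 and Insig2, the transfer protein was Stard4, and the LXR targets were Abca1, Abcg1 and Mylip.

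Cholesterol is built from acetyl-CoA. The mevalonate arm makes isoprenoid diphosphates, which also feed protein prenylation, and the sterol arm joins them into squalene and turns that into lanosterol and then cholesterol. When membrane sterol is low, Scap escorts the SREBP proteins, which Srebf1 and Srebf2 encode, from the endoplasmic reticulum to the Golgi, where they are cleaved into active transcription factors for the enzymes. Insig1 and Insig2 hold Scap back when sterol is plentiful, and LXR, which senses oxysterols, turns on genes of cholesterol export.

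The cells were primary cardiac fibroblasts at passage 2 with loxP sites around Hyal2, the gene of a hyaluronidase, although their genotype label reads wild type C57BL/6J. All groups were serum starved for 24 h, exposed for 5 h to an adenovirus and kept for 48 h with growth factor at 20 ng/mL. The virus carried GFP as the control (GFP), Cre recombinase, which removes exon 2 of Hyal2 (Cre), or Hyal2 for overexpression (Hyal2), and in 2 further groups TGFB was added, after the GFP virus in GFP_TGFB and after the Cre virus in Cre_TGFB. The labels do not say clearly whether the cultures without TGFB received bFGF instead, so an effect of adding TGFB and an effect of lacking bFGF cannot be told apart here. Each group had 4 libraries. Replicates 1 and 2 are labelled female and 3 and 4 male, and the library names carry the same isolate code for each replicate number in every group, so that a number stands for a cell isolate and sex differs between isolates. Levels are given as CPM, which are counts relative to library size, with TMM factors, and fold changes as log2 values with standard errors (SE) from edgeR. Genes with an adjusted p under 0.05 (Benjamini-Hochberg, across the 15624 genes tested) are referred to as called.

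Libraries held 38.6 to 104.8 M counts, and 3 counts in a library correspond to 0.0286 to 0.0777 CPM, a limit that covers counting error only. Hyal2 itself ranged from 36.6 to 44.5 CPM in the GFP libraries, and with TGFB from 33.4 to 41.1 CPM. After the Cre virus it was at 7.62 to 13.5 CPM and, with TGFB added, at 5.37 to 9.14 CPM, and the overexpressing libraries had 398.8 to 1419.1 CPM, so every library matched its virus label. These gene counts do not show which exons were read. Summed fibroblast markers stood at 23581.9 to 31399.9 CPM in GFP and 30912.7 to 37946.7 in GFP_TGFB, where 1 of the 6 markers was called higher and 4 lower. Of 5 cardiomyocyte markers Myh6, Actc1 and Nppa were at or near 0 in all groups, and Tnnt2 and Tnni3 passed the filter. The 5 summed to 2.49 to 3.3 CPM in GFP and 1.2 to 3.38 CPM in GFP_TGFB, and Tnni3 was called lower with TGFB under both viruses. The mitochondrial share of counts was 0.625% to 1.199% in GFP and 0.789% to 1.08% in GFP_TGFB. In Cre it was 0.538% to 0.622% and in Cre_TGFB 0.757% to 1.602%, without overlap. Its part in the TGFB results was not tested. In bulk RNA, fewer cells of a type and less RNA per cell cannot be told apart.

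The promoters of some members are shown because SREBP proteins act through a sterol regulatory element, written here as TCACNCCAC, usually beside a CCAAT box bound by NF-Y. Windows of 300 bases (250 before to 50 after the start site) were available for 22 members in the RefSeq table of build GRCm38.p6, as 30 windows. The other 5 members, Fdps, Fdft1, Sqle, Stard4 and the LXR target Abcg1, had no window and were not searched. Both strands were searched. The exact element occurred in 1.24% of all 32851 windows and in that of 1 member, Hmgcs1, where it lies at base 114 of the window, at -137 from the start. With at most 1 mismatch it occurred in 11 of the 30 member windows (36.7%) and in 24.2% of all windows. These windows belong to Cyp51, Msmo1, Dhcr7 and Nsdhl, which rose in GFP_TGFB against GFP, and to Insig2 and Mylip, which fell. The others belong to Hmgcs1, Insig1, Hsd17b7, Acat2 and Srebf2, which were not called there. CCAAT occurred in 66.7% of member windows and 37.4% of all. The GC box GGGCGG occurred in 83.3% of member windows and 35.7% of all. The LXR repeat, AGGTCA and a second AGGTCA after any 4 bases, was in none of the member windows and in 0.0152% of all. These are matches of letters in the windows, and no binding was measured. Below, capitals mark the element with at most 1 mismatch and CCAAT, on either strand, and adjoining matches run together in Msmo1. Hmgcs1 (chr13:119690101-119690400, plus strand) holds the exact element, Msmo1 (chr8:64733529-64733828, minus strand) and Cyp51 (chr5:4104648-4104947, minus strand) are enzymes whose transcripts rose with TGFB, and Insig1 (chr5:28071162-28071461, plus strand) is the feedback protein. The last 3 were chosen after their values were seen.
Hmgcs1: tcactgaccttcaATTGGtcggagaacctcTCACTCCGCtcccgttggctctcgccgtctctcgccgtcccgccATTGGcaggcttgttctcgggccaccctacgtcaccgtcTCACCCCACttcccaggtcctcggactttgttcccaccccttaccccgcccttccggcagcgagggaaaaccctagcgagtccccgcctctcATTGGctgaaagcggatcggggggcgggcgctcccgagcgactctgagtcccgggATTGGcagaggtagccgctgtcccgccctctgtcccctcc
Msmo1: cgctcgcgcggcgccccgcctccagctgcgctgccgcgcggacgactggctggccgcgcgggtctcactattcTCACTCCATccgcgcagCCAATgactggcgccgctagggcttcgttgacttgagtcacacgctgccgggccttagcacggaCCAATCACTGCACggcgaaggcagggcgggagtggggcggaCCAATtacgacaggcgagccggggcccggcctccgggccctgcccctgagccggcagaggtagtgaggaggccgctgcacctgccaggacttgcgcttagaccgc
Cyp51: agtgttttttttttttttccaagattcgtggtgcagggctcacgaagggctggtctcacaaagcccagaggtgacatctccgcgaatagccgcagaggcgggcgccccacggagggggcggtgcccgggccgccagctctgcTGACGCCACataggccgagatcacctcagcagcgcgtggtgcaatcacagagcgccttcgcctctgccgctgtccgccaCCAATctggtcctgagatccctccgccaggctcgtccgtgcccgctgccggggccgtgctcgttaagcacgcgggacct
Insig1: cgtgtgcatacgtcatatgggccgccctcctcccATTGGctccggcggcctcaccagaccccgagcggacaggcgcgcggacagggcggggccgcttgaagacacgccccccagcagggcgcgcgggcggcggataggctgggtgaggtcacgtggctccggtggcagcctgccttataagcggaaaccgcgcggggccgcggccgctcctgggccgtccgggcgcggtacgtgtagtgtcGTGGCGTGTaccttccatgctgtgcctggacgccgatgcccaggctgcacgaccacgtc

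The first comparison asked what TGFB did to these genes with Hyal2 intact, in GFP_TGFB against GFP. Of the 27 members 8 rose, 4 fell and 15 were not called, when 26.6% of all genes tested rose and 28.6% fell. The share of members that rose (8 of 27) was thus close to that of all genes. The median log2 change over the members was -0.01, and over all genes -0.02. Among the 18 enzymes 7 rose (Fdps, Msmo1, Cyp51, Nsdhl, Dhcr7, Mvd and Fdft1) and 1 fell (Sc5d), with a median of 0.15. With upper-quartile factors in place of TMM the split of members was 5 higher and 4 lower, since Fdft1, Nsdhl and Dhcr7 were no longer called.

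**Figure D1:**
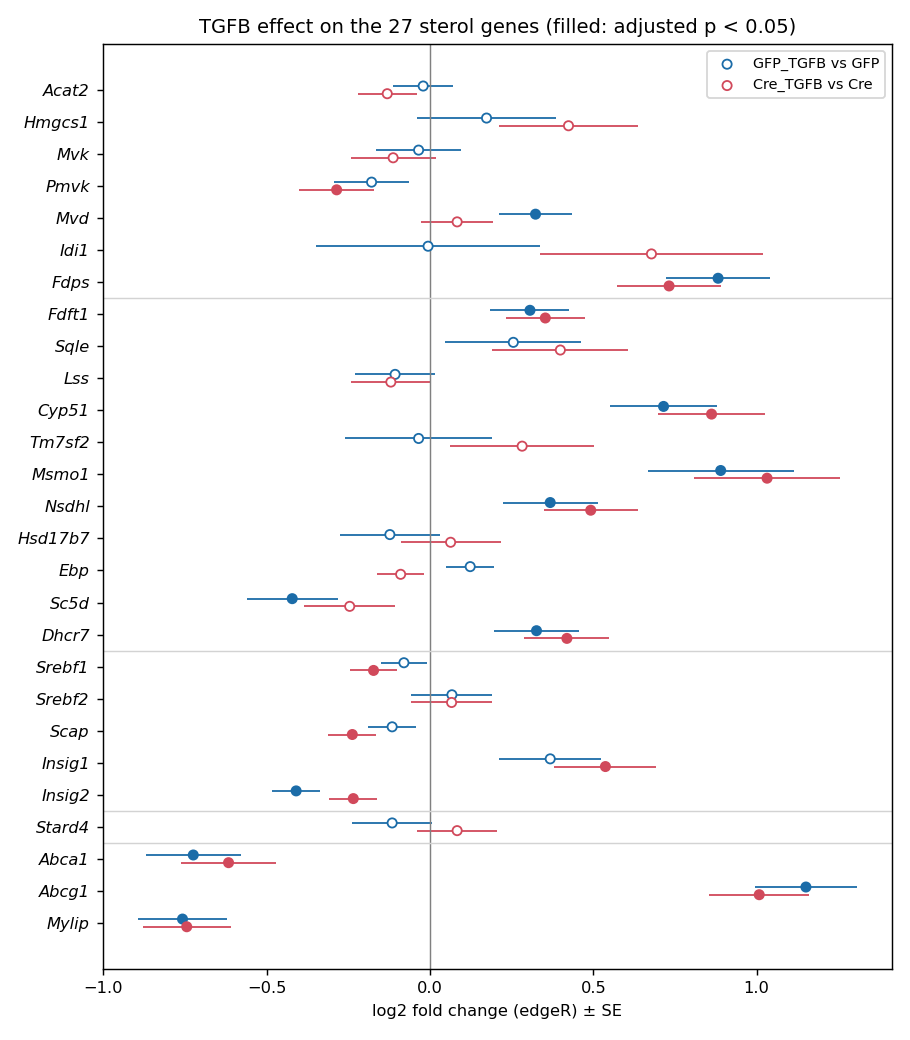
Log2 fold change with its standard error (horizontal axis) for each of the 27 sterol genes, with GFP virus (blue, GFP_TGFB against GFP) and Cre virus (red, Cre_TGFB against Cre), n = 4 per group. Filled points passed an adjusted p of 0.05 in edgeR, and grey lines separate mevalonate arm, sterol arm, regulators, Stard4 and LXR targets. Msmo1, Fdps, Cyp51 and Abcg1 lie farthest right in both, and Mylip and Abca1 farthest left.

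In the mevalonate arm, Fdps, the farnesyl diphosphate synthase whose product feeds both sterols and prenylation, changed most. It measured 17.2, 14.1, 17.4 and 21.6 CPM in GFP replicates 1 to 4 and 37.1, 27.7, 29.6 and 35 CPM in GFP_TGFB. The groups did not overlap, and Fdps rose by 0.88 ± 0.16 (SE, log2; adjusted p = 0.000112 in edgeR). Mvd, the mevalonate diphosphate decarboxylase, went from 12.3, 9.57, 11.5 and 10.7 CPM to 16.6, 12.5, 12.5 and 13.6 CPM. The lowest libraries with TGFB stood just above the highest without it, and the rise was 0.32 ± 0.11 (adjusted p = 0.0191). Hmgcs1, which makes HMG-CoA, was at 41.9, 34.1, 52.5 and 77.7 CPM in GFP and 63.2, 58.4, 50.3 and 60.2 CPM in GFP_TGFB. The GFP libraries of Hmgcs1 spread over both sides of those with TGFB, and its change of 0.17 ± 0.21 was not called (adjusted p = 0.515). Idi1, the isomerase of isopentenyl diphosphate, had the fewest reads of the set with Tm7sf2 and gave -0.01 ± 0.34. Acat2, which condenses acetyl-CoA (-0.02 ± 0.09), and the kinases Mvk (-0.03 ± 0.13) and Pmvk (-0.18 ± 0.12) were not called either.

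In the sterol arm 5 of 11 enzymes rose and 1 fell, and in the mevalonate arm 2 of 7 rose and 0 fell. Of all genes tested 26.6% rose and 28.6% fell. Msmo1, the methylsterol monooxygenase, measured 19.7, 13.5, 24.6 and 35.6 CPM in GFP and 45.6, 36.6, 44.6 and 45.9 CPM in GFP_TGFB. Every library with TGFB lay above every library without, and the rise was 0.89 ± 0.22 (adjusted p = 0.00219 in edgeR). Cyp51, the lanosterol demethylase, went from 38.7, 32.2, 42.9 and 57.6 CPM to 74.8, 66, 65.6 and 74.9 CPM. These groups did not overlap either, and Cyp51 rose by 0.72 ± 0.16 (adjusted p = 0.00114). Nsdhl, which removes the oxidised methyl groups, rose by 0.37 ± 0.14, from 16.7 to 25.8 CPM across GFP libraries to 25.3 to 28.5 CPM across those with TGFB. Dhcr7, the reductase of a last step of synthesis, rose by 0.33 ± 0.13, from a range of 11.1 to 14.6 CPM to 14.7 to 20.6 CPM. Fdft1, the squalene synthase, rose by 0.31 ± 0.12, from 24.7 to 36.4 CPM to 34.3 to 41.5 CPM. The groups overlapped for Nsdhl and Fdft1 and were nearly touching for Dhcr7, and the adjusted p-values were 0.0377, 0.0386 and 0.0413.

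Sc5d, the lathosterol desaturase, was the enzyme that fell. It measured 51.3, 41.2, 61.4 and 71.8 CPM in GFP and 44.8, 43.7, 38.3 and 41.4 CPM in GFP_TGFB. Only female replicate 2 of GFP lay within the range with TGFB, and Sc5d fell by 0.42 on the log2 scale (SE 0.14, adjusted p = 0.0153 in edgeR). Within isolates 1 to 4 its difference was -0.193, 0.085, -0.682 and -0.792, so the fall lay mainly in the male isolates 3 and 4. Of the enzymes not called, Sqle, the squalene epoxidase, gave 0.26 ± 0.21, and Lss, the lanosterol synthase, gave -0.11 ± 0.12. Hsd17b7, a sterol ketoreductase, gave -0.12 ± 0.15, the sterol isomerase Ebp gave 0.12 ± 0.07, and the sterol reductase Tm7sf2 gave -0.04 ± 0.22.

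**Figure D2:**
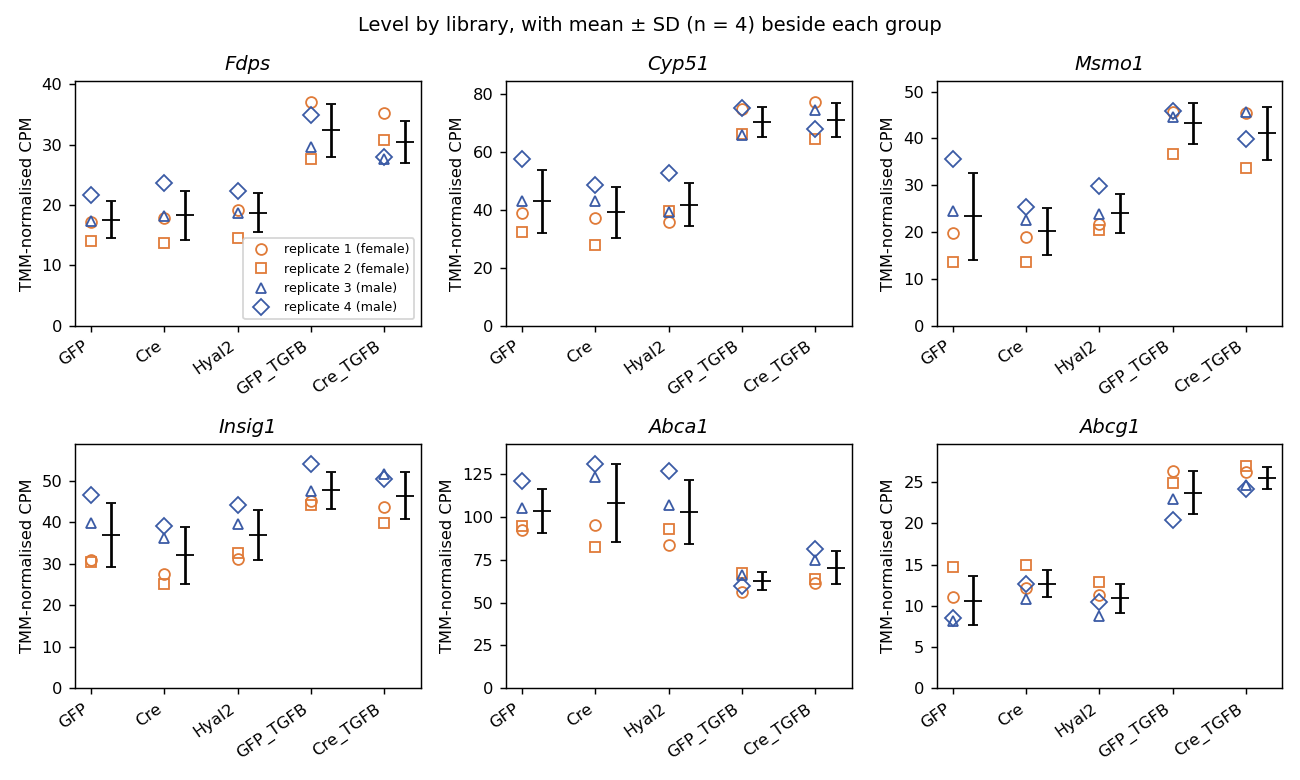
Level of 6 members in every library, in TMM-normalised CPM (vertical axis, from 0), by group. Symbols give the replicate number and colour the labelled sex of the isolate, and the bar beside each group is the mean ± SD, n = 4. In Fdps, Cyp51 and Abcg1 all libraries with TGFB lie above all those without, and in Abca1 they lie below, while in Msmo1 this holds within each virus but Cre_TGFB replicate 2 (33.6 CPM) lies below GFP replicate 4 (35.6 CPM).

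The fold changes of the 2 Insig genes had opposite signs. Insig2 went from 35.7, 32.9, 36.4 and 41.5 CPM in GFP to 26.7, 28.1, 28.5 and 26.9 CPM in GFP_TGFB. The groups did not overlap, and Insig2 fell by 0.41 (SE 0.07, adjusted p = 0.000107 in edgeR). Insig1, itself an SREBP target, measured 31, 30.3, 39.8 and 46.6 CPM in GFP and 45, 44.2, 47.4 and 54.1 CPM in GFP_TGFB. Its level was higher with TGFB in each of the 4 isolates, by 0.54, 0.54, 0.25 and 0.21. The highest GFP library overlapped with the lower ones with TGFB, and the difference of 0.37 ± 0.16 in Insig1 just missed the threshold (adjusted p = 0.0526). It was called in 7 of 20 alternative fits. These included the replicate block, which compares libraries within isolates (adjusted p = 9.39e-05), and the fit without GFP replicate 4 (adjusted p = 0.0132). RLE factors (0.0433), DESeq2 (0.0346), limma-voom (0.0405) and a fit of the compared groups alone (0.0392) called it too. With the block 13 members were called, 9 higher and 4 lower, against 29.8% and 32.1% of all genes. The genes of the transcription factors and their escort gave small differences that were not called, of -0.08 ± 0.07 for Srebf1, 0.07 ± 0.12 for Srebf2 and -0.12 ± 0.07 for Scap. Stard4, which carries sterol between membranes, gave -0.12 ± 0.12.

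The 3 LXR targets did not move together. Abca1, the transporter that loads cholesterol onto lipid-poor apolipoprotein, measured 92.4, 94.8, 105.3 and 120.6 CPM in GFP and 56.3, 67.4, 66.2 and 59.9 CPM in GFP_TGFB. It fell by 0.73 (SE 0.14, adjusted p = 0.000307 in edgeR) with no overlap. Mylip, a ubiquitin ligase for lipoprotein receptors, went from 12.7, 10.2, 14.9 and 12.1 CPM to 8.45, 7.98, 7.37 and 5.66 CPM. All its libraries with TGFB lay below those without, and it fell by 0.76 (SE 0.14, adjusted p = 9.76e-05). Abcg1, which exports cholesterol to high-density lipoprotein, took the opposite course, from 11.1, 14.7, 8.22 and 8.55 CPM to 26.4, 24.9, 23 and 20.4 CPM. It rose by 1.15 ± 0.15, with no overlap (adjusted p = 3.93e-06). Macrophages express these genes too, and the summed level of 8 leukocyte markers moved with TGFB, from 182.5 to 423.2 CPM in GFP to 109.0 to 267.0 CPM in GFP_TGFB, with 4 of the 8 called lower and 0 higher. Ptprc, which marks all leukocytes, was at 2.37 to 4.29 CPM and 0.977 to 2.47 CPM. Endothelial markers summed to 29.9 to 35.2 CPM and 10.4 to 15.9 CPM, with 2 of 5 called lower. The part of these cells in the results was not tested.

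In fits without the replicate block, several calls rested on single libraries. With the block and no library left out, 7 enzymes were called higher and Sc5d lower. Among them Mvd had an adjusted p of 0.0036 and Fdft1 of 0.00443 in edgeR. The block was not combined with left-out libraries. In edgeR fits that left out 1 library of the groups compared, Fdps, Msmo1, Cyp51, Abcg1, Insig2, Abca1 and Mylip stayed called in all 8 fits. The adjusted p of Mvd was 0.0918 without GFP_TGFB replicate 1 and 0.0676 without GFP replicate 2, and that of Sc5d was 0.0814 without GFP replicate 4, where it fell by 0.29. Fdft1 reached 0.0817, 0.138 and 0.0534 without GFP replicates 1, 2 and 3, and 0.107 and 0.101 without GFP_TGFB replicates 1 and 4. Nsdhl reached 0.108, 0.12 and 0.0576 without GFP replicates 1, 2 and 3, and 0.0929, 0.0522, 0.0557 and 0.0535 without GFP_TGFB replicates 1 to 4. Dhcr7 reached 0.0504, 0.137 and 0.0545 without GFP replicates 1, 2 and 3, and 0.167 and 0.0571 without GFP_TGFB replicates 1 and 4. Fdps shares exon positions with the predicted gene Gm43738 and Tm7sf2 with Vps51 on their own strand, and Acat2 has a close copy, Acat3. Overlaps on the opposite strand involve Cyp51 (with Akap9), Fdft1 (Ctsb), Srebf1 (Rai1), Hmgcs1 (Gm48342), Idi1 (Gm48574), Lss (4930483K19Rik) and Scap (5830462I19Rik), and the strand setting of the counting is not given in the sources used here. Whether reads from the shared stretches were counted for the member, for the neighbour or copy, or for neither cannot be seen in these counts.

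The same treatment was compared after deletion of Hyal2, in Cre_TGFB against Cre, which uses other libraries of the same isolates. Of the 27 members 8 rose and 6 fell, when 27.5% of all genes rose and 29% fell. The median over members was 0.08 and over all genes -0.00, and among the 18 enzymes 6 rose, 1 fell and the median was 0.32. The members called in the same direction in both comparisons numbered 10, which is 83.3% of the 12 called with GFP virus and 71.4% of the 14 called with Cre virus. Over all genes tested the corresponding shares were 85.6% and 83.7%, so the members' overlap was not above that of all genes. They were 7 that rose (Fdps, Fdft1, Cyp51, Msmo1, Nsdhl, Dhcr7 and Abcg1) and 3 that fell (Insig2, Abca1 and Mylip).

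Msmo1 measured 19, 13.7, 22.6 and 25.3 CPM in Cre and 45.4, 33.6, 45.7 and 39.8 CPM in Cre_TGFB, a rise of 1.03 ± 0.22 (adjusted p = 0.000605 in edgeR). Cyp51 went from 37, 27.8, 42.9 and 48.6 CPM to 77.1, 64.5, 74.3 and 67.9 CPM, a rise of 0.86 ± 0.17 (adjusted p = 0.000197). Fdps went from 17.8, 13.7, 18.2 and 23.6 CPM to 35.2, 30.8, 27.6 and 28 CPM, a rise of 0.73 ± 0.16 (adjusted p = 0.000633). In all 3 the groups did not overlap. Nsdhl rose by 0.49 ± 0.14, Dhcr7 by 0.42 ± 0.13 and Fdft1 by 0.35 ± 0.12. Pmvk, the phosphomevalonate kinase, was the only enzyme called lower and fell by 0.29 (SE 0.11, adjusted p = 0.0393), while Mvd (0.08 ± 0.11) and Sc5d (-0.25 ± 0.14) were not called. Enzymes with wide spread in Cre gave 0.42 ± 0.21 for Hmgcs1, 0.68 ± 0.34 for Idi1 and 0.40 ± 0.21 for Sqle, and these were not called without the replicate block in the fit of all libraries but were called with it (adjusted p = 0.0216, 0.0184 and 0.00826). The block then called 17 members, 11 higher and 6 lower, beside 31% and 32.6% of all genes.

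Among the regulators after deletion, Insig1 went from 27.6, 25, 36.2 and 39.2 CPM to 43.7, 39.7, 51.7 and 50.4 CPM. No library with TGFB was below any without, and Insig1 rose by 0.54 ± 0.16 (adjusted p = 0.00658 in edgeR). Insig2 fell by 0.24 (SE 0.07), Scap fell by 0.24 (SE 0.07) and Srebf1 fell by 0.17 (SE 0.07), with adjusted p-values of 0.0104, 0.0092 and 0.044, and Srebf2 gave 0.07 ± 0.12. Of the LXR targets, Abcg1 rose by 1.01 ± 0.15, Abca1 fell by 0.62 (SE 0.14) and Mylip fell by 0.74 (SE 0.13), with adjusted p-values of 1.62e-05, 0.00126 and 0.000104. The leukocyte markers summed to 155.4 to 406.3 CPM in Cre and 102.2 to 259.2 CPM in Cre_TGFB, and their part in these results was not tested.

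Without the block, calls of the deletion series that rested on 1 library were those of Srebf1, Pmvk and Fdft1. With the block and no library left out, all of them were called. In edgeR the adjusted p of Srebf1 was 0.08, 0.0795 and 0.134 without Cre replicates 1, 3 and 4, and 0.0564, 0.168 and 0.0637 without Cre_TGFB replicates 2, 3 and 4. That of Pmvk was 0.0527, 0.118 and 0.0964 without Cre replicates 1, 3 and 4, and 0.125 and 0.061 without Cre_TGFB replicates 3 and 4. That of Fdft1 was 0.0709 without Cre replicate 2 and 0.0644 without Cre_TGFB replicate 1. Some calls were also lost with no library of Cre or Cre_TGFB left out. Srebf1 reached 0.0568 with RLE factors, 0.0893 without a filter on low counts and 0.0746 in a fit of those groups alone. Pmvk reached 0.0569 without the filter. In the other direction, Idi1 (0.0468) was called in a fit of the Cre and Cre_TGFB libraries alone, Hmgcs1 (0.0452) and Sqle (0.0468) were called without Cre replicate 4, and Sc5d (0.0357) without Cre replicate 2. Leaving out isolate 1 from all groups gave 8 called members, 5 higher and 3 lower. Nsdhl (0.0581), Dhcr7 (0.0559) and Insig2 (0.0611) were among those no longer called. Without isolate 4 Insig2 (0.0806) and Scap (0.0734) were among those not called.

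The genes of 6 other lists around the pathway were counted in GFP_TGFB against GFP beside the 26.6% of all genes that rose and 28.6% that fell. Of 8 other genes of sterol synthesis 3 rose and 5 fell, among them the electron donors Cyb5a (-1.10 ± 0.12) and Por (-0.50 ± 0.06). Of 12 genes of the isoprenoid branches 6 rose and 1 fell. These included the farnesyltransferase subunits Fntb (0.54 ± 0.07), which rose, and Fnta, which fell by 0.39 (SE 0.06), and Rabggtb, a subunit of the enzyme that prenylates Rab proteins, rose by 0.51 ± 0.10. Of 16 genes of SREBP transport and turnover 7 rose and 3 fell, including the coat protein gene Sec24b (0.51 ± 0.06) and Erlin2 (-0.40 ± 0.06). Of 21 genes of cholesterol uptake and trafficking 8 rose and 5 fell, including the lysosomal lipase Lipa (-0.69 ± 0.06), the oxysterol hydroxylase Cyp7b1 (-2.99 ± 0.32) and Tmem97 (0.66 ± 0.07).

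Of 11 further genes of the LXR system 1 rose and 7 fell, with a median of -0.63. Nr1h3, which encodes LXR alpha, was at 5.35 to 8.04 CPM in GFP and 1.23 to 1.51 CPM in GFP_TGFB and fell by 2.30 (SE 0.17, adjusted p = 1.84e-09 in edgeR). The receptor gene thus fell in the same libraries in which Abca1 and Mylip fell and Abcg1 rose. Arl4c rose by 1.95 ± 0.23 and the transporter gene Abca7 fell by 1.08 (SE 0.14). Of 15 tested SREBP-responsive genes of fatty acid synthesis 7 rose and 6 fell, including the acetyl-CoA carboxylase Acaca (0.67 ± 0.07), the citrate lyase Acly (0.51 ± 0.07) and the elongase Elovl5 (-0.74 ± 0.08). In Cre_TGFB against Cre the counts of genes that rose and fell were 3 and 5, 4 and 1, 7 and 3, 9 and 6, 1 and 7, and 6 and 7, in the same order of lists.

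Levels of the enzymes varied between isolates, and less so with TGFB. In GFP the summed level of the 18 enzymes was 362.6 and 309.2 CPM in the female isolates 1 and 2 and 411.2 and 499.2 CPM in the male isolates 3 and 4. In GFP_TGFB it was 515.3, 442.9, 435.9 and 481.4 CPM in the same order. The isolates that stood apart without TGFB thus lay close together with it, at a level near the highest without it. In Cre the sum was 364.7, 287.4, 416.0 and 433.3 CPM and in Cre_TGFB 523.6, 437.1, 466.7 and 447.9 CPM. In Hyal2 it was 372.3, 352.1, 418.3 and 466.6 CPM.

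The order of isolates was shared by most enzymes without TGFB. Both male isolates lay above both female isolates in 14 of the 18 enzymes in GFP, 15 in Cre and 11 in Hyal2, when this held for 30.2%, 28.2% and 22.2% of all genes tested. With TGFB it held for 0 of 18 in GFP_TGFB and 0 of 18 in Cre_TGFB, beside 27.1% and 28.7% of all genes. Both females lay above both males in 4 of 18 enzymes in GFP_TGFB and 8 of 18 in Cre_TGFB, when 23.5% and 30% of all genes did so. The median log2 range between the highest and lowest isolate over the 18 enzymes was 0.59 in GFP and 0.31 in GFP_TGFB, and 0.62 in Cre and 0.35 in Cre_TGFB. Over all genes the corresponding medians were 0.41, 0.32, 0.38 and 0.35. The range was smaller in GFP_TGFB than in GFP for 14 of 18 enzymes, 77.8% beside 61.5% of all genes, and smaller in Cre_TGFB than in Cre for 15 of 18, 83.3% beside 53.8%. A narrower range was not particular to TGFB. In Hyal2, without TGFB, it was smaller than in GFP for 12 of 18 enzymes, 66.7% beside 43.9% of all genes. It was smaller there than in Cre for 14 of 18, 77.8% beside 39.4%. The median range in Hyal2 was 0.51 over the enzymes and 0.44 over all genes. These separations were looked at after the values were seen and carry no test.

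**Figure D3:**
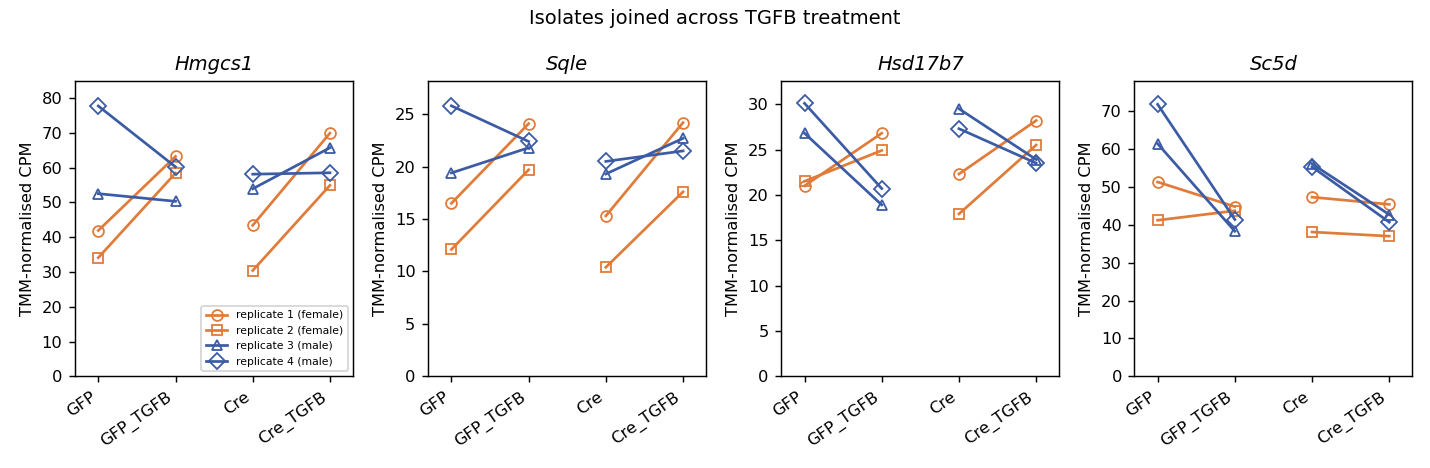
Level in TMM-normalised CPM (vertical axis, from 0) of 4 enzymes in each isolate, joined from the culture without to the culture with TGFB, for GFP virus and Cre virus. Colour and symbol give isolate and labelled sex. In Hsd17b7 with GFP virus both female isolates go up and both male isolates go down.

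Within each isolate the libraries with and without TGFB were compared directly. In female isolates 1 and 2 Hmgcs1 was 0.59 and 0.78 higher with TGFB (log2, GFP virus), and in male isolates 3 and 4 the difference was -0.06 and -0.37. Idi1 gave 0.84 and 1.04 in the females and -0.50 and -0.70 in the males. Sqle gave 0.54, 0.69, 0.17 and -0.20, Msmo1 gave 1.21, 1.44, 0.86 and 0.37, and Fdps gave 1.11, 0.97, 0.77 and 0.69 in isolates 1 to 4. Fdps and Msmo1 were thus higher with TGFB in every isolate, and Hmgcs1 and Idi1 with GFP virus only in the females. The mean over the females exceeded that over the males in 17 of 18 enzymes with GFP virus and in 18 of 18 with Cre virus. In the edgeR fit below, with GFP virus, 17 of 18 enzymes had the lower signed log2 change in males, beside 8073 of 15624 genes. For Cre virus no share over all genes was computed. These counts come from the same libraries as the separation of the isolates above and are not a further observation. The isolates come from 2 female and 2 male sources, so sex and isolate cannot be told apart.

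**Figure D4:**
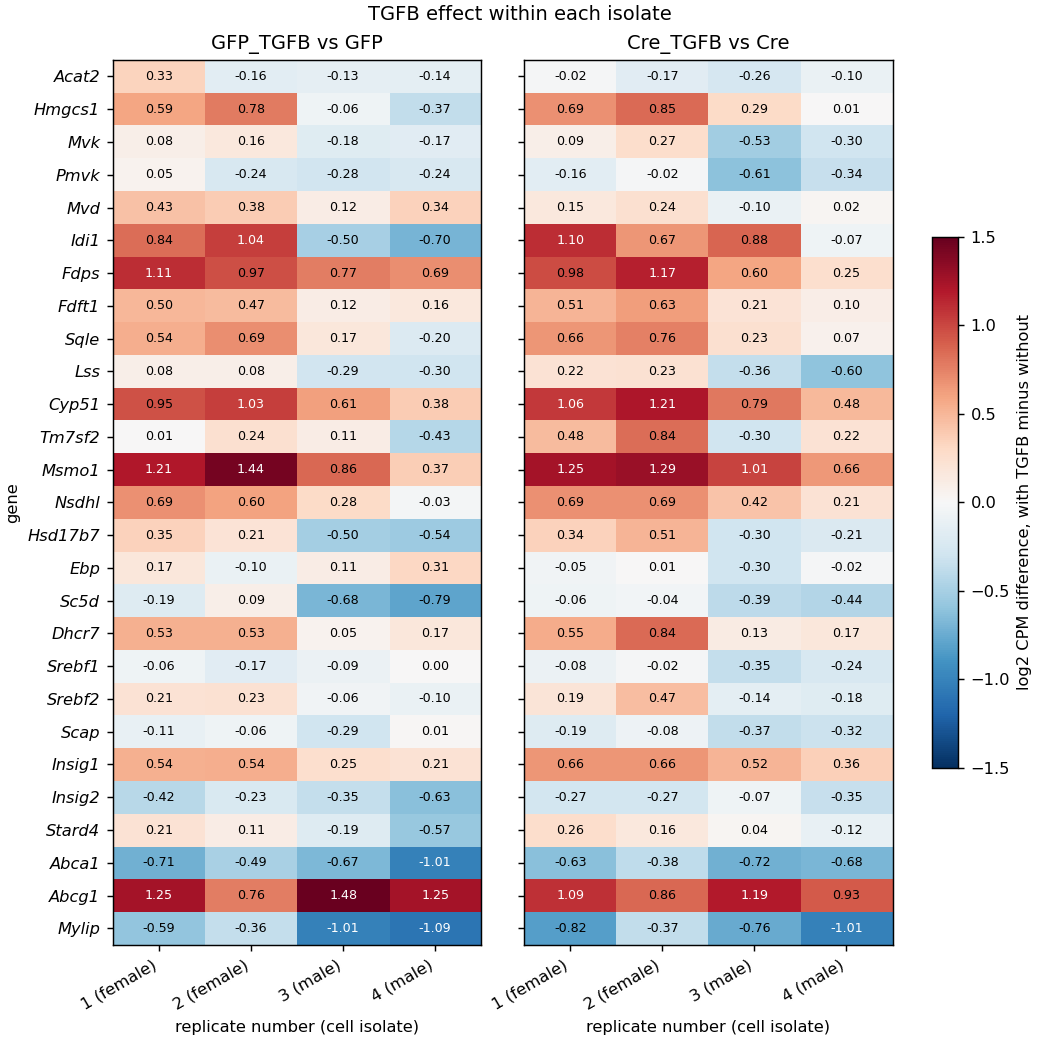
Difference in log2 CPM between the library with and the library without TGFB of the same isolate (columns, with labelled sex) for each of the 27 genes (rows), with GFP virus on the left and Cre virus on the right. Red is higher and blue lower with TGFB, on a scale of log2 units. The enzyme rows are redder in the female columns, as in Hmgcs1 with 0.59 and 0.78 against -0.06 and -0.37.

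The difference in TGFB effect between male and female isolates was tested with GFP virus, by fitting a separate mean for each sex within each group. In edgeR 1 member was called, when 1.38% of all genes were. This was Hsd17b7, which measured 21 and 21.5 CPM in the female GFP libraries, 26.8 and 30.1 CPM in the male ones, 26.8 and 24.9 CPM in the female GFP_TGFB libraries and 18.9 and 20.7 CPM in the male ones. Its mean difference with TGFB was 0.28 in the females and -0.52 in the males, and the male effect lay below the female effect by -0.80 ± 0.15 (adjusted p = 0.0185). With the replicate block 6 members were called, all with the lower signed log2 change in males, beside 6.05% of all genes. They were Hsd17b7 (-0.80 ± 0.15, adjusted p = 0.00624), Sc5d (-0.69 ± 0.13, 0.00624), Hmgcs1 (-0.92 ± 0.19, 0.0112), Idi1 (-1.58 ± 0.35, 0.0142), Msmo1 (-0.72 ± 0.19, 0.036) and Sqle (-0.64 ± 0.18, 0.0454). Over all 27 members 24 had the lower signed change in males, with a median of -0.32, beside 8073 of 15624 genes and a median of -0.01 over all genes. Where a gene fell, a lower signed change is a larger fall. This was so in Sc5d (mean difference -0.05 in the females and -0.74 in the males) and Mylip (-0.47 and -1.05).

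The test rests on 2 libraries per mean, and without the block the call of Hsd17b7 depended on most of them. Its adjusted p in edgeR was 0.111 and 0.0626 without GFP replicates 2 and 4, and 0.0502, 0.0933, 0.0977 and 0.0536 without GFP_TGFB replicates 1 to 4. Without GFP replicate 1 there were 3 called members, Hsd17b7, Sc5d (0.0308) and Idi1 (0.0492). Leukocyte markers also differed between isolates, with sums of 423.2, 287.3, 249.4 and 182.5 CPM in GFP and 267.0, 203.8, 136.4 and 109.0 CPM in GFP_TGFB for isolates 1 to 4. Pericyte markers summed to 122.8, 97.5, 167.3 and 139.7 CPM in GFP and 109.0, 98.2, 105.6 and 104.5 CPM in GFP_TGFB. The part of these cells in the isolate difference was not tested.

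The remaining comparisons asked what loss or excess of Hyal2 did to the sterol genes. Cre against GFP, Hyal2 against GFP and the TGFB comparison with GFP virus share the GFP libraries, and Hyal2 against Cre uses the Cre libraries again. No member was called in Cre against GFP (0 of 27, beside 0.0064% of all genes in edgeR, which is Hyal2 itself), and 1 member had an unadjusted p under 0.05. With the replicate block 0 members were called beside 0.269% of all genes, and 3 had an unadjusted p under 0.05. DESeq2 and limma-voom also called 0. The median over members was 0.01. The members with the smallest p were Scap (0.16 ± 0.07), Insig2 (-0.14 ± 0.07), Idi1 (-0.60 ± 0.35) and Abcg1 (0.25 ± 0.15), all with an adjusted p of 0.926. Idi1, for example, was at 1.33, 0.844, 2.43 and 3.56 CPM in GFP and 1.12, 0.929, 1.5 and 1.85 CPM in Cre, and the Cre libraries lay inside the GFP range.

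**Figure D5:**
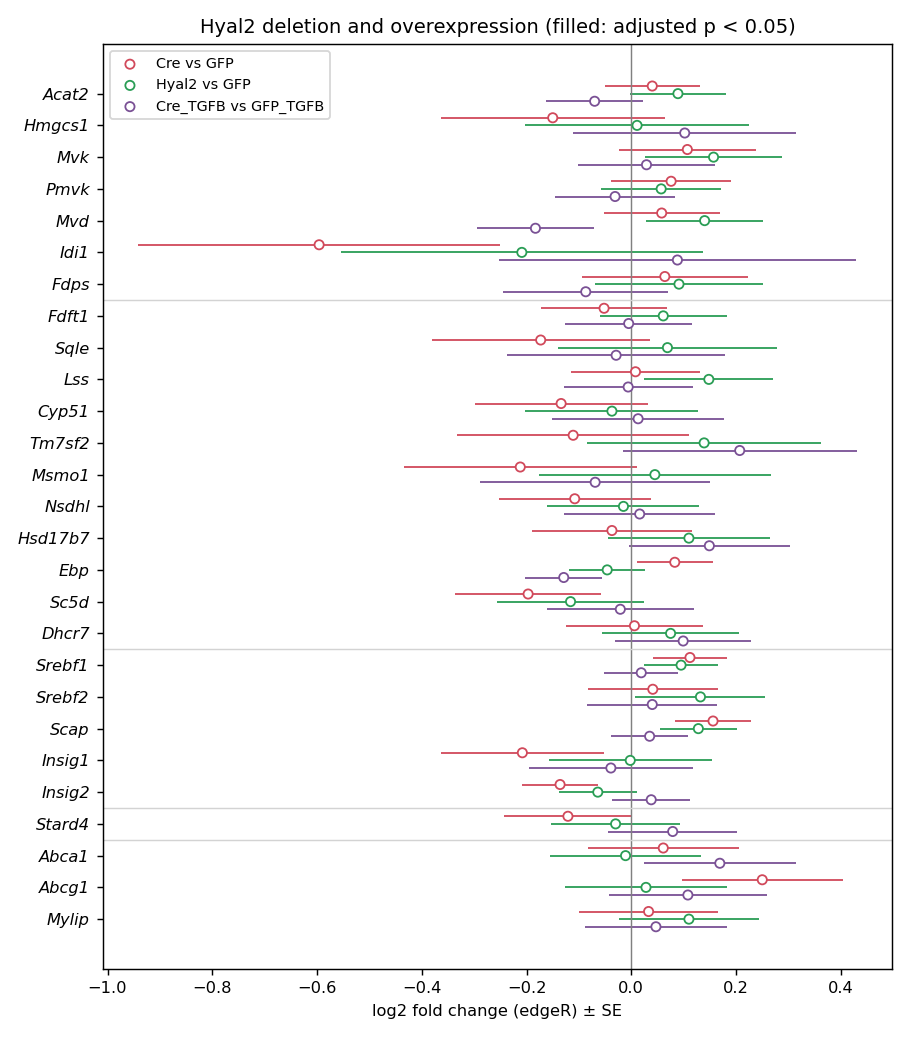
Log2 fold change with its standard error (horizontal axis) of the 27 sterol genes for Cre against GFP (red), Hyal2 against GFP (green) and Cre_TGFB against GFP_TGFB (purple), n = 4 per group. All points are open, since 0 of 27 passed an adjusted p of 0.05 in edgeR in each comparison.

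Overexpression gave no called member either. In Hyal2 against GFP 0 of 27 were called (0.0064% of all genes, and 0.0064% with the replicate block, which also called 0 members). At an unadjusted p under 0.05 there were 0 in both fits, and DESeq2 and limma-voom called 0. The members with the smallest p were Scap (0.13 ± 0.07), Srebf1 (0.10 ± 0.07), Mvd (0.14 ± 0.11) and Lss (0.15 ± 0.12). In Hyal2 against Cre 0 of 27 were called (0.0128% of all genes), with 0 at an unadjusted p under 0.05, and with the block 0 were called (0.992% of all genes) and 2 had an unadjusted p under 0.05. DESeq2 and limma-voom called 0 here too. In this comparison 16 of 18 enzymes had a positive fold change, with a median of 0.10, beside 8132 of 15624 genes and a median of 0.01 over all genes. The smallest p-values belonged to Ebp (-0.13 ± 0.07), Abcg1 (-0.22 ± 0.15), Insig1 (0.21 ± 0.16) and Sqle (0.24 ± 0.21).

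With TGFB present, deletion likewise gave 0 called members in Cre_TGFB against GFP_TGFB, beside 0.0064% of all genes, and 0.0064% with the block, which called 0 members as well. Neither fit gave a member an unadjusted p under 0.05 (0 of 27 in both), and DESeq2 and limma-voom called 0. The smallest p-values belonged to Ebp (-0.13 ± 0.07), Mvd (-0.18 ± 0.11), Abca1 (0.17 ± 0.14) and Hsd17b7 (0.15 ± 0.15). Cyp51, for example, was at 74.8, 66, 65.6 and 74.9 CPM in GFP_TGFB and 77.1, 64.5, 74.3 and 67.9 CPM in Cre_TGFB. The interaction, which tests whether the TGFB response differed after deletion, called 0 of 27 members and 0.0% of all genes in edgeR, with and without the block. The members with an unadjusted p under 0.05 numbered 0 without the block and 1 with it, and DESeq2 and limma-voom called 0. The smallest p-values belonged to Ebp (-0.21 ± 0.10), Insig2 (0.17 ± 0.10), Mvd (-0.24 ± 0.16) and Idi1 (0.68 ± 0.48). The calls of Mvd and Sc5d with GFP virus alone, and of Pmvk, Srebf1, Scap and Insig1 with Cre virus alone, were therefore not shown to differ between the viruses. On simulated counts for GFP_TGFB against GFP with 15624 genes, 67, 67 and 66 genes were changed by 0.5, 1 and 2 on the log2 scale. The test recovered 38.8%, 71.6% and 90.9% of them. Far fewer genes were changed than the 8634 called in the data, and the simulated libraries had no isolate effect. These shares therefore do not give the recovery in the data, and the interaction was not simulated.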

How the data were processed

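RNA-seq counts were analysed from 20 libraries in 5 groups of 4. The authors deposited raw counts of reads per Ensembl gene, made with HTSeq 0.10.0 on build mm39 (GRCm39) after FastQC 0.10.1, per the submitters' processing notes. Not given in the sources used here: aligner, annotation release and strand setting. All columns matched a labelled sample (0 unmatched), 0 rows named no gene, and 52081 of 55414 identifiers had a symbol in a GRCm38 annotation, used for names and exon overlaps only. Counts were tested with edgeR 4.0.16 (R 4.3.3; robust quasi-likelihood F test, TMM, filterByExpr with a minimum count of 10 and total of 15), in 1 fit of all libraries with a mean per group and Benjamini-Hochberg adjustment over 15624 genes. SE is the absolute log2 fold change over the square root of F. Log2 CPM used a prior count of 2. DESeq2 1.42.0 and limma 3.58.1 (voom), other factors and filters, left-out libraries and a replicate block were alternatives.

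Members and lists were chosen with earlier results of these data known. All members were named in the TGFB comparisons, elsewhere the 4 with the smallest p and any called with or without the block, and the 3 genes with the smallest p of each other list. Some genes that this rule names are not reported here. Library names carry an isolate code per replicate number, and samples were paired by that code. Libraries of the same number deviated together from their group means (correlation at least 0.114, median 0.41, over 40 pairs). Other pairs had a median of -0.25 but reached 0.442, and they mix isolates of the same and of opposite sex. Deviations from a group mean cancel within the group. The negative median of other pairs is therefore partly set by this centring. By mean correlation, 18 of 20 libraries matched best with their own number. Replicates are cultures of 4 isolates, and no 2 libraries of a group held identical counts. On simulated data the test made 136 calls, 2 of them false. Library depth was 38.6 to 104.8 M counts.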

Additional observations from a re-analysis of the deposited data

Results flagged for a closer look

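In groups of 4 libraries, 5 of 135 combinations of member and group had a library whose gap to its nearest neighbour took most of the group's range, and chance gives about 1 in 20 such cases. Msmo1 was at 36.6 CPM in GFP_TGFB replicate 2, with the other libraries at 44.6 to 45.9 CPM. Nsdhl was at 28.5 CPM in GFP_TGFB replicate 1, with the others at 25.3 to 25.5 CPM. Dhcr7 was at 11.1 CPM in GFP replicate 2, with the others at 14.2 to 14.6 CPM. Srebf1 was at 107.8 CPM in Hyal2 replicate 2, with the others at 128.4 to 130.5 CPM. Mylip was at 10.5 CPM in Cre replicate 2, with the others at 13.4 to 13.7 CPM. The effect of TGFB on Hsd17b7 with GFP virus differed between male and female isolates by -0.803 on the log2 scale in edgeR.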

How the results depend on the processing

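Called members in GFP_TGFB against GFP numbered 9 to 13 over the other factors, filters, tools and samples, with 4 lower in each, and 8 to 12 in fits that left out 1 library or isolate. In Cre_TGFB against Cre they numbered 12 to 17, and 8 to 15 in the fits with a library or isolate left out. In the 5 comparisons without a called member, 0 were called in all alternatives run. With the replicate block, the paired analysis, the sex difference in the TGFB effect had 6 called members, and it had 4 with DESeq2, 7 without a filter on low counts and 0 to 3 with a library or isolate left out. Members that were not called changed sign near 0 in GFP_TGFB against GFP. Idi1 went from -0.01 to 0.13 with the replicate block, 0.01 with RLE factors, 0.0 with DESeq2 and 0.26 with limma-voom, and Tm7sf2 from -0.04 to 0.01 with limma-voom. With a library or isolate left out, the log2 change ranged from -0.14 to 0.02 for Acat2, 0.0 to 0.44 for Hmgcs1, -0.13 to 0.02 for Mvk, -0.28 to 0.41 for Idi1, -0.2 to 0.12 for Tm7sf2, -0.27 to 0.03 for Hsd17b7, 0.0 to 0.13 for Srebf2 and -0.21 to 0.06 for Stard4. In Cre_TGFB against Cre it ranged from -0.23 to 0.01 for Mvk, -0.26 to 0.05 for Lss, -0.06 to 0.18 for Hsd17b7 and -0.05 to 0.17 for Srebf2. The cause of these shifts was not tested. Depth limits Idi1 and Tm7sf2 most, with 52 to 191 and 81 to 216 reads per library.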
